A study of Homo sapiens with 8 samples.

Results

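The 10 genes described here encode protein disulfide isomerases of the endoplasmic reticulum (ER) and the 2 oxidases that feed them. They are P4HB, PDIA3, PDIA4, PDIA5, PDIA6, ERP44, TXNDC5, TXNDC11, ERO1A and ERO1B. They were chosen by symbol, as the Ensembl IDs that map to these names, and made up 10 of the 36715 genes in the count table. Each symbol matched 1 row, and all 10 passed the filter on low counts. The RNA came from MDA-MB-231, an established human line of triple-negative breast cancer, in a study of ER stress under the compound EMD37. All cells grew in the same serum-supplemented medium and had no genetic change stated in the labels. The vehicle groups received DMSO for 12 h or 24 h, and the treated groups received EMD37 at 0.5 µM for 12 h or 24 h. Each of these 4 groups had 2 RNA-seq libraries, marked A and B. The labels do not say that A and B were separate cultures, so p-values only measure how A and B differ, which may be technical.

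Proteins that enter the ER are folded in an oxidising space, where pairs of cysteines are joined into disulfide bonds. Protein disulfide isomerases (PDIs) carry thioredoxin-like domains that make, break and rearrange those bonds. ERO1 oxidases take electrons from reduced PDIs and pass them to oxygen, which yields hydrogen peroxide. When unfolded protein gathers in the ER, the sensors IRE1, PERK and ATF6 start the unfolded protein response, which is known to raise many ER folding genes. The ERO1A gene is known as a target of hypoxia, though not of hypoxia alone, and ERO1B as a target of the unfolded protein response.

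Libraries held between 8994977 and 11437813 counted reads in a count table whose copy here is cut off inside a line. Genes held only in the normalized table took another 8.26% to 11.66% of all reads, which are outside these totals and the shares below. In all, 14850 genes of the count table were tested. Levels are CPM, the read counts of a gene scaled to a common library total with TMM factors, and levels of different genes are compared only as CPM per kb of exon. Correlations of log2 CPM between A and B ran from 0.988 to 0.992. The 5 genes taken as markers of this mesenchymal-like line (VIM, CD44, AXL, MSN, CAV1) lay between 899 and 2013 CPM. With EMD37 at 24 h, 3 of them fell (CAV1 by 0.72, CD44 by 0.39 and AXL by 0.35 on the log2 scale). That is 60.0% of these 5 genes, beside 21.1% of all tested genes called lower at 24 h. The epithelial markers CDH1 and EPCAM did not exceed 0.278 CPM in any library, and ESR1, PGR and GATA3 lay between 0.463 and 3.98 CPM. Of 11 markers of leukocytes, fibroblasts and plasma cells, 10 stayed at or below 1.66 CPM and LYZ had 0 reads in every library. The exception, SDC1, is also made by epithelial tumours and lay between 93.5 and 150.6 CPM. With EMD37 at 24 h SDC1 fell by 0.31 on the log2 scale (adjusted p = 0.0399 in edgeR), and DESeq2 did not call it. The part of these changes in the results below was not tested. In such bulk RNA, a change in every cell and a change in some of the cells cannot be told apart.

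The 10 genes together took a larger share of the reads in every treated library than in any vehicle library. At 12 h the share was 0.0657% ± 0.0021 (SD, n = 2) in vehicle and 0.116% ± 0.0049 with EMD37. At 24 h it was 0.0712% ± 0.0061 in vehicle and 0.128% ± 0.0005 with EMD37. At 12 h, 9 of the 10 genes were higher with EMD37 and 0 lower at an adjusted p below 0.05 in edgeR's quasi-likelihood test, where 5.27% of all tested genes were called higher and 3.43% lower. Those shares are 782 and 510 genes, and leaving out any 1 of the 4 libraries at 12 h gave 387 to 448 higher and 106 to 211 lower. At 24 h, 8 were higher and 0 lower, where 19.6% of all tested genes were called higher and 21.1% lower. No member was lower at either time at an unadjusted p below 0.05, by edgeR or by DESeq2 (0 in each). The median log2 fold change of the 10 genes was 1.05 at 12 h and 0.95 at 24 h, and that of all tested genes was -0.01 and -0.03. ERO1A was the 1 gene not called at either time, and TXNDC5 was called at 12 h and not at 24 h.

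**Figure D1:**
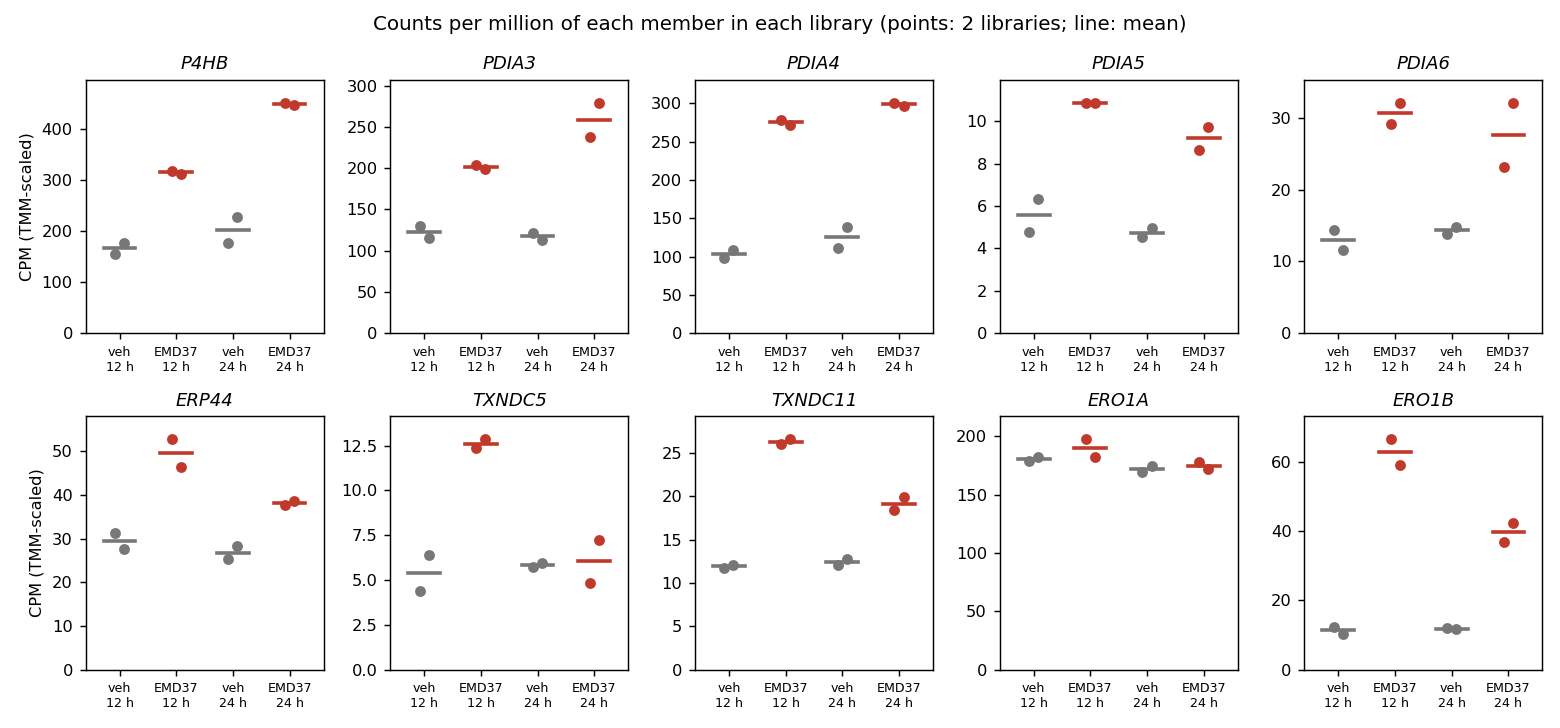
TMM-scaled CPM (vertical axes, each from 0) of the 10 genes in the 8 libraries, with grey points for vehicle, red points for EMD37 and a line at the mean of the 2 libraries of each group. Both EMD37 libraries lie above both vehicle libraries of the same time for every gene except ERO1A at 12 h (181.9 in the lower EMD37 library and 182.2 in the higher vehicle library), ERO1A at 24 h and TXNDC5 at 24 h.

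The 2 oxidases differed in both level and response. ERO1A (ENSG00000197930, chromosome 14, 52639916 to 52695900 on the minus strand of GRCh38) was the more abundant. It had 179 and 182 CPM in the vehicle libraries at 12 h and 197 and 182 with EMD37, and 169 and 175 in vehicle at 24 h and 178 and 172 with EMD37. The vehicle and EMD37 libraries of ERO1A overlapped at both times. The fitted change was 1.05-fold at 12 h (95% interval 0.943 to 1.17, adjusted p = 0.632 in edgeR) and 1.02-fold at 24 h (0.912 to 1.13, adjusted p = 0.827). These intervals leave room for a rise of up to 1.17-fold or a fall to 0.912 of the vehicle level.

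ERO1B (ENSG00000086619, chromosome 1, 236215555 to 236281985, minus strand) had the largest change of the 10 genes at both times. Its vehicle libraries held 12.4 and 10.4 CPM at 12 h, against 66.4 and 59.1 with EMD37. At 24 h vehicle held 12.0 and 11.6 CPM and EMD37 36.9 and 42.4. No EMD37 library came near a vehicle library. ERO1B rose by log2 2.46 (SE 0.13, adjusted p = 2.13e-09 in edgeR) at 12 h, a 5.52-fold change with a 95% interval of 4.53 to 6.73, and stood 44th of 14850 genes ordered by log2 fold change. At 24 h it rose by log2 1.74 (SE 0.14, adjusted p = 5.07e-08), or 3.35-fold (2.73 to 4.10), and stood 362nd. The intervals of ERO1A and ERO1B do not overlap at either time, and the difference between them was not tested.

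Within a library the ratio of ERO1B to ERO1A does not depend on how libraries are scaled. Per kb of exon it was 0.0975 and 0.0806 in the vehicle libraries at 12 h and 0.474 and 0.458 with EMD37. At 24 h it was 0.100 and 0.0938 in vehicle and 0.292 and 0.348 with EMD37. ERO1A thus remained the more abundant oxidase per kb of exon in all 8 libraries, by a smaller margin after treatment. With 2 libraries against 2 an exact permutation test of such a ratio cannot pass 0.05, and none was made.

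**Figure D2:**
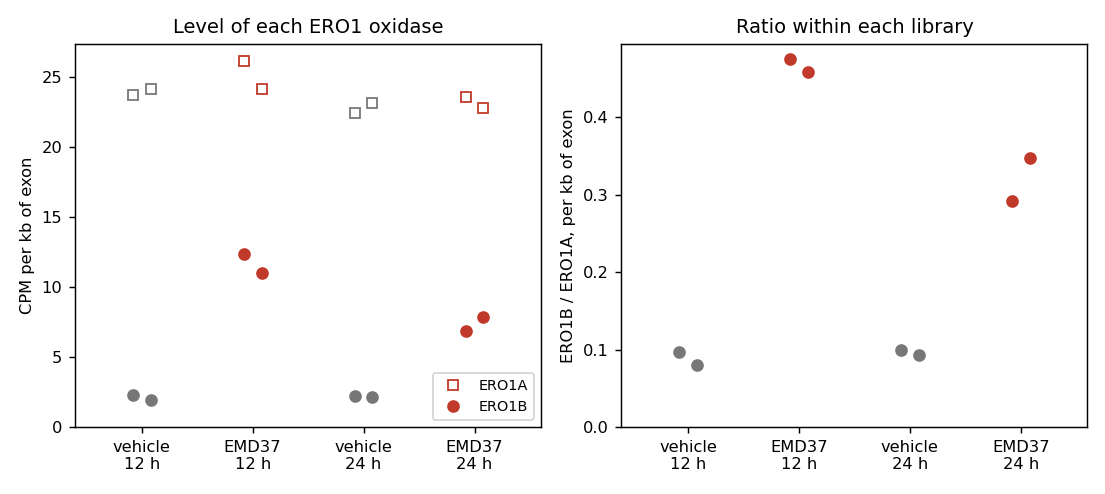
Left, CPM per kb of exon of ERO1A (open squares) and ERO1B (filled circles) in each library, grey for vehicle and red for EMD37. Right, the ratio of ERO1B to ERO1A per kb of exon in each library, which lies between 0.0806 and 0.100 in vehicle and between 0.292 and 0.474 with EMD37.

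Sequences before the start sites were read from RefSeq (GRCh38.p14) for 9 of the 10 genes, with more than 1 start for PDIA4, PDIA6 and TXNDC5. PDIA3 is named only. The windows covered the 250 bases before each start, and both strands were searched. One motif was the ER stress response element (ERSE), written CCAAT, then any 9 bases, then CCACG, which the factors ATF6 and NF-Y are known to bind. ERSE occurred in 0.074% of 35116 such windows, and its 2 matches among these genes were in ERO1B and at the second start of PDIA6. The ERO1B match ran on the opposite strand, at -243 to -225 from the start. The ERO1B stretch is shown because this gene rose most. It covers the bases from 250 before the start up to the first base of a GENCODE 29 exon (chr1:236281986-236282208, minus strand), 5′ to 3′ along the gene, with the match in capitals, where it reads as the reverse complement of the motif.

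ERO1B: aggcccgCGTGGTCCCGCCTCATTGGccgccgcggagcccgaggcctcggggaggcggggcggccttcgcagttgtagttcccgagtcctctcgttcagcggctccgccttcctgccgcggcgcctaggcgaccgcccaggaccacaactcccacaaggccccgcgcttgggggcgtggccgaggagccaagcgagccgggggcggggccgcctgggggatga

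The ERO1A window held no ERSE. It held 2 matches to the core of the hypoxia response element (HRE, ACGTG or GCGTG), a motif found in 43.2% of windows. The first base of the ERO1A window already lies in a GENCODE exon, so no stretch is printed. That window (52695559 to 52695808) lies inside the gene, which ends at 52695900. Most of the ERO1B window lies before its gene, so the 2 windows do not cover like regions. The 3 tested genes whose centred log2 CPM lay closest to ERO1A over the 8 libraries were FECH, GLTP and STK17A, at root mean square differences of 0.037, 0.040 and 0.042. Closest to ERO1B were DNAJB1, TSPYL2 and TRIB3, at 0.206, 0.210 and 0.235.

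The 3 most abundant isomerases were P4HB, PDIA3 and PDIA4, all at or above 26.5 CPM per kb of exon in every library. P4HB (ENSG00000185624, chromosome 17, 81843159 to 81860694, minus strand) encodes the classical PDI, which is also the beta subunit of collagen prolyl 4-hydroxylase. Its vehicle libraries held 155 and 177 CPM at 12 h and 177 and 227 at 24 h. With EMD37 it held 318 and 311 CPM at 12 h and 451 and 447 at 24 h, above every vehicle library. P4HB rose 1.89-fold at 12 h (95% interval 1.63 to 2.19) and 2.22-fold at 24 h (1.92 to 2.57), with adjusted p = 8.47e-06 and 1.34e-07 in edgeR.

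PDIA3 (ENSG00000167004, chromosome 15, 43746392 to 43773279, plus strand) encodes ERp57, which acts on glycoproteins together with calnexin and calreticulin. Vehicle held 129.6 and 115 CPM at 12 h and 122 and 113 at 24 h. EMD37 libraries held 204 and 199 CPM at 12 h and 238 and 279.6 at 24 h, so that the treated libraries of the later time stood above those of the earlier. The rise was 1.65-fold (1.44 to 1.88) at 12 h and 2.21-fold (1.93 to 2.52) at 24 h, with adjusted p = 4.24e-05 and 4.74e-08 in edgeR. Its processed pseudogene PDIA3P1 was counted at 148 to 253 reads per library, and reads of this near-identical copy may have been split between both genes. Of the PDIA3 exon bases, 18.9% lie in other genes.

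PDIA4 (ENSG00000155660, chromosome 7, 149003062 to 149028641, minus strand) encodes ERp72, an isomerase with more than 1 catalytic domain. Vehicle libraries held 98.5 and 108 CPM at 12 h and 111 and 138 at 24 h, against 278 and 273 and then 301 and 297 with EMD37. It had the largest rise of the 3 abundant isomerases at 12 h, 2.66-fold (2.32 to 3.05, adjusted p = 1.92e-08 in edgeR). At 24 h the rise was 2.40-fold (2.09 to 2.75, adjusted p = 1.91e-08). In vehicle at both times the libraries of PDIA4 and P4HB overlapped per kb of exon, while with EMD37 both PDIA4 libraries lay above both P4HB libraries at each time.

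PDIA6 and PDIA5 had fewer reads. PDIA6 is usually abundant in cultured cells, and no source used here gives a reason for its low count, so its place in the order of levels is that of these counts only. PDIA6 (ENSG00000143870, chromosome 2, 10783391 to 10837977, minus strand) encodes P5, an isomerase known to bind the chaperone BiP and the sensor IRE1. Its vehicle libraries held 14.3 and 11.5 CPM at 12 h and 13.9 and 14.9 at 24 h. EMD37 libraries held 29.2 and 32.1 CPM at 12 h, and 23.1 and 32.1 at 24 h, where the pair lay furthest apart. The rise was 2.38-fold (1.86 to 3.04) at 12 h and 1.93-fold (1.50 to 2.46) at 24 h, with adjusted p = 8.78e-05 and 0.000271 in edgeR. These values rest on 135 to 332 reads per library, and 25.2% of the exon bases lie in ATP6V1C2 on the other strand, which the library kit does not tell apart. ATP6V1C2 itself was counted at 31 and 25 reads in vehicle and 80 and 78 with EMD37 at 12 h. At 24 h it had 25 and 29 reads in vehicle and 42 and 40 with EMD37. The part of this overlap in the PDIA6 rise was not tested.

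The second RefSeq start of PDIA6 has an ERSE match on the strand of the gene, at -86 to -68 from the start. It is shown in capitals for comparison with ERO1B, from 250 bases before the start to the first exon base (chr2:10812845-10813035, minus strand).

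PDIA6: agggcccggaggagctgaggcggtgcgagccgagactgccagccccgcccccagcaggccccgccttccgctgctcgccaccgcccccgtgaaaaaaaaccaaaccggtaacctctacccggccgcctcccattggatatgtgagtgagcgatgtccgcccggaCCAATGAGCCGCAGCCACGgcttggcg

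No other member window held an ERSE, nor one with up to 1 mismatch, a search added after the exact matches were seen, which 1.36% of all windows satisfied. None of the member windows held ERSE-II (ATTGG, any base, CCACG, 0.0513% of windows) or the core bound by ATF4 and C/EBP factors (TGATGNAA, 3.14%). A motif match is a string of letters and not a measured binding site. The windows of P4HB and of the first start of PDIA4 held 3 CCAAT boxes each without a full element, and CCAAT alone stands in 32% of all windows.

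**Figure D3:**
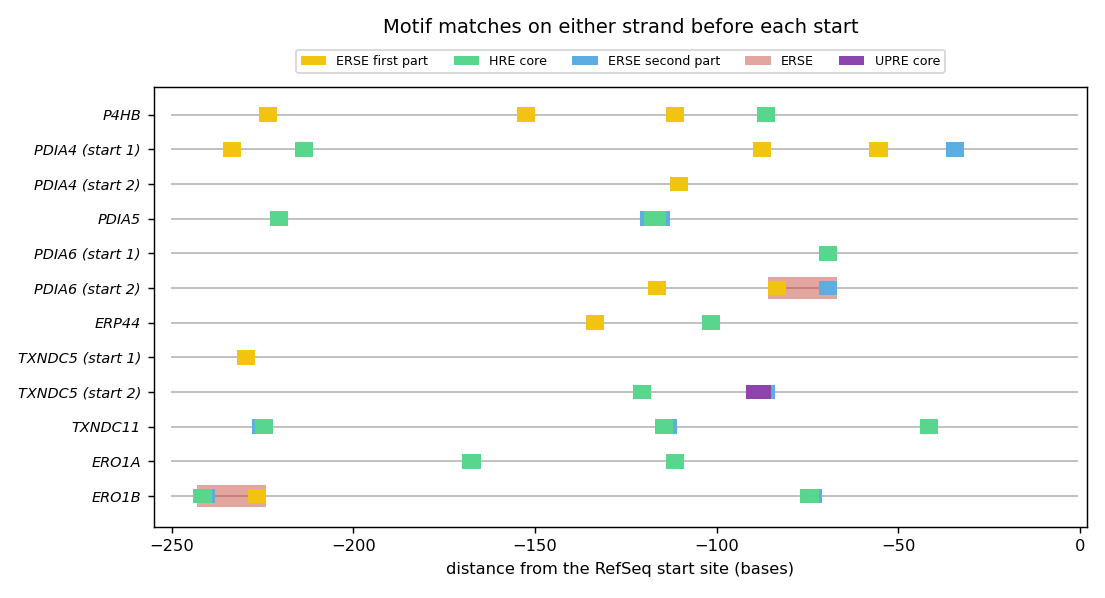
Position of motif matches on either strand in the 250 bases before each RefSeq start (horizontal axis, bases from the start site), with 1 line per start. Yellow and blue bars are the first (CCAAT) and second (CCACG) parts of ERSE on their own, and green bars are HRE cores. The 2 wide pale red bars are the ERSE matches of ERO1B and of the second start of PDIA6, and the purple bar is the TGACGTG match at the second start of TXNDC5, drawn over an HRE core inside it.

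PDIA5 (ENSG00000065485, chromosome 3, 123067062 to 123225227, plus strand) encodes PDIR, which is known to act on the disulfides of ATF6. Vehicle libraries held 4.78 and 6.33 CPM at 12 h and 4.53 and 4.95 at 24 h. EMD37 libraries held 10.9 and 10.8 CPM at 12 h and 8.66 and 9.75 at 24 h. The rise was 1.94-fold at both times, with 95% intervals of 1.45 to 2.60 and 1.43 to 2.65 and adjusted p = 0.00498 and 0.00161 in edgeR. The call at 12 h was lost without vehicle library A (adjusted p = 0.0834) and without EMD37 library A (0.0526). These values rest on 46 to 118 reads per library, and 14.3% of its exon bases lie in other genes, SEC22A on the same strand among them.

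ERP44, TXNDC5 and TXNDC11 are thioredoxin-fold proteins with more specialised roles. ERP44 (ENSG00000023318, chromosome 9, 99979179 to 100099040, minus strand) binds ERO1 oxidases and unassembled clients beyond the ER and returns them. Vehicle libraries held 31.3 and 27.7 CPM at 12 h and 25.4 and 28.2 at 24 h, against 52.7 and 46.5 and then 37.8 and 38.6 with EMD37. The rise was 1.69-fold (1.42 to 2.00, adjusted p = 0.000378 in edgeR) at 12 h and 1.43-fold (1.20 to 1.70, adjusted p = 0.00261) at 24 h. The latter was the smallest of the 8 changes called at 24 h.

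TXNDC11 (ENSG00000153066, chromosome 16, 11679080 to 11742878, minus strand) encodes a membrane protein that works with the mannosidases EDEM2 and EDEM3 and in the maturation of DUOX oxidases. Vehicle libraries held 11.8 and 12.1 CPM at 12 h and 12.1 and 12.8 at 24 h. EMD37 libraries held 26.1 and 26.6 CPM at 12 h and 18.5 and 19.9 at 24 h. At both times the treated pair lay well above the vehicle pair, and the later pair below the earlier. The rise was 2.20-fold (1.79 to 2.69, adjusted p = 3.07e-05 in edgeR) at 12 h and 1.54-fold (1.25 to 1.90, adjusted p = 0.00223) at 24 h.

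TXNDC5 (ENSG00000239264, chromosome 6, 7881517 to 7910814, minus strand) encodes ERp46, an isomerase that introduces disulfides quickly. Vehicle libraries held 4.37 and 6.41 CPM at 12 h, and EMD37 libraries 12.3 and 12.8. At 24 h vehicle held 5.74 and 5.92 CPM and EMD37 4.86 and 7.24, so that the treated libraries enclosed the vehicle ones. The rise at 12 h was 2.31-fold (1.67 to 3.20, adjusted p = 0.00189 in edgeR). At 24 h the fitted ratio was 1.04, with a 95% interval of 0.730 to 1.49 (adjusted p = 0.866). TXNDC5 was counted at 43 to 134 reads per library, and 60.6% of its exon bases also belong to the readthrough gene BLOC1S5-TXNDC5 on the same strand, so reads there may have been assigned to neither gene or to the other. Exon bases in genes of the opposite strand made up 9.98% for P4HB, 11.2% for TXNDC11 and 7.7% for ERO1A, and none were shared for PDIA4, ERP44 and ERO1B.

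Of all the member windows, the second start of TXNDC5 alone held the core of the unfolded protein response element bound by XBP1 and ATF6 (UPRE, TGACGTG), which 1.68% of all windows hold. The window is shown because TXNDC5 was the 1 isomerase not called at 24 h, with the core in capitals, at -92 to -86 from the start (chr6:7910078-7910327, minus strand). This stretch is inside the gene, after its first start.

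TXNDC5: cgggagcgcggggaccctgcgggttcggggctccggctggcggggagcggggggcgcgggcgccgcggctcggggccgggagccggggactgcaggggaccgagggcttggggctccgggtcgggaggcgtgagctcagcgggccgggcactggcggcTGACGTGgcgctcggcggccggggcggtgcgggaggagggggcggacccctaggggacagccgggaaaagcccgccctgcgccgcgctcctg

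**Figure D4:**
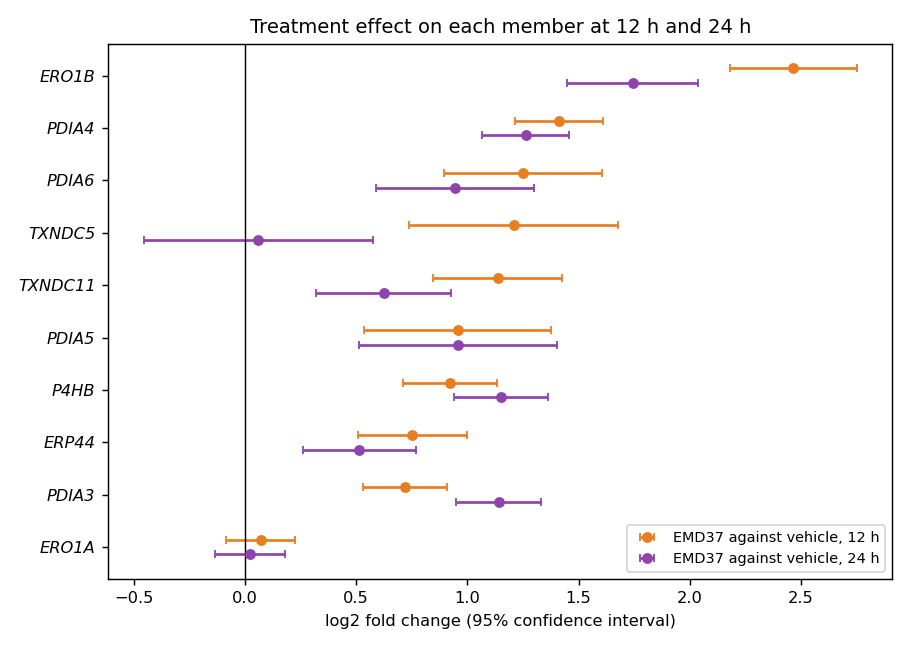
Log2 fold change of EMD37 against vehicle at 12 h (orange) and 24 h (purple) for each gene (rows), with 95% confidence intervals from the fit, ordered by the change at 12 h. ERO1B lies furthest right at both times, at 2.46 and 1.74. The intervals of ERO1A at both times and of TXNDC5 at 24 h include 0.

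The effects at 12 h and 24 h were then compared directly, as a treatment by time interaction. PDIA3 had a larger effect at 24 h, and TXNDC5 and ERO1B a smaller one. Thus 1 of the 10 genes was called higher and 2 lower, where 7.96% of all tested genes were called higher and 7.94% lower. The log2 difference, 24 h minus 12 h, was 0.42 for PDIA3 (SE 0.13, adjusted p = 0.0319 in edgeR), -1.15 for TXNDC5 (SE 0.33, adjusted p = 0.0261) and -0.72 for ERO1B (SE 0.20, adjusted p = 0.0188). TXNDC11, at -0.51, missed the threshold (adjusted p = 0.0931), as did the remaining 6 genes.

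All 3 of these calls depended on single libraries. Some losses came with little change in the value: without EMD37 A or B at 12 h PDIA3 was at 0.44 and 0.41, and TXNDC5 at -1.18 and -1.11. Over all 8 omissions PDIA3 ran from 0.30 to 0.55, TXNDC5 from -1.47 to -0.88 and ERO1B from -0.84 to -0.58. The PDIA3 call was lost without vehicle A at 12 h (adjusted p = 0.172), EMD37 A at 12 h (0.0981), EMD37 B at 12 h (0.139) or EMD37 B at 24 h (0.168). That of TXNDC5 was lost without vehicle A at 12 h (0.114), EMD37 A at 12 h (0.0719), EMD37 B at 12 h (0.0865) or EMD37 A at 24 h (0.109), and in DESeq2 (0.0567). That of ERO1B was lost without vehicle B at 12 h (0.123), EMD37 A at 12 h (0.0959) or EMD37 A at 24 h (0.0876). P4HB, with a difference of 0.23, was called without vehicle B at 24 h (0.0118). The direction was the same in all 13 alternatives for PDIA3, TXNDC5 and ERO1B.

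Treated cells were also compared over time, which shares the EMD37 libraries with the comparisons above. From 12 h to 24 h of EMD37, 2 genes were higher and 4 lower, where 15.5% of all tested genes were called higher and 15.7% lower. P4HB was higher by log2 0.51 (adjusted p = 0.000792 in edgeR) and PDIA3 by 0.36 (0.00485). TXNDC5 fell by 1.05 (0.00176), ERO1B fell by 0.66 (0.000484), TXNDC11 fell by 0.46 (0.0149) and ERP44 fell by 0.38 (0.019). The calls of P4HB, TXNDC5 and ERO1B held when any 1 of the 4 libraries was left out. Without EMD37 B at 12 h the PDIA3 call was lost (adjusted p = 0.0624), and without EMD37 B at 24 h its change was 0.24 (0.0997). ERP44 was not called without EMD37 A at 12 h (0.191), EMD37 A at 24 h (0.124) or EMD37 B at 24 h (0.0811). TXNDC11 was not called without EMD37 A (0.0697) or B (0.099) at 12 h, nor without EMD37 A (0.133) or B (0.051) at 24 h, nor in DESeq2 with all libraries (0.0619), which called 3 genes lower.

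In vehicle alone, 0 of the 10 genes were called in either direction between 12 h and 24 h by edgeR or DESeq2, where 2.75% of all tested genes were called higher and 3.25% lower. At an unadjusted p below 0.05, 2 were higher and 0 lower in both tools. In edgeR these were P4HB, at log2 0.28 (adjusted p = 0.107 in edgeR), and PDIA4, at 0.27 (0.104). Both were called without vehicle A at 24 h, at 0.44 (adjusted p = 0.000463) and 0.40 (0.00215). In both genes that library lay below vehicle B at the same time.

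The other lists hold genes of the same chemistry, its partners and its regulators. Of 16 further PDI-family and ER thioredoxin-fold genes, 10 passed the filter. At 12 h, 2 rose and 1 fell (1 and 1 in DESeq2), with a median log2 fold change of 0.07. Those are 20.0% and 10.0% of the list, beside 5.27% and 3.43% of all tested genes. DNAJC10, the ER reductase ERdj5, rose by 0.48 (SE 0.08) and TXNDC15 by 0.33 (SE 0.10), while the membrane protein TMX1 fell by 0.26 (SE 0.08). TXNDC15 and TMX1 were close to the threshold (adjusted p = 0.0443 and 0.0452 in edgeR). At 24 h, 4 of the 10 tested genes rose and 2 fell, with a median of 0.16. Of all tested genes, 19.6% were called higher and 21.1% lower at that time, so the share that fell was close to that of all genes. DESeq2 called 4 higher and 1 lower. AGR2, an isomerase of mucin-producing cells, rose by 3.96 (SE 0.57) but lay at 0.185 to 3.86 CPM over all libraries. TXNDC12 rose by 1.36 (SE 0.28) on 2.26 to 6.18 CPM, and DNAJC10 by 0.91 (SE 0.08). The membrane protein TMX4 fell by 0.63 (SE 0.08).

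All 12 listed genes of other ER thiol and peroxide handling were tested. At 12 h, 3 rose and 0 fell (0 in DESeq2, and 1 at an unadjusted p below 0.05 in each tool). Those are 25.0% and 0.0% of the list, beside 5.27% and 3.43% of all tested genes. The genes that rose were CRELD2 by 2.16 (SE 0.17), CRELD1 by 1.42 (SE 0.18), both with PDI-like activity, and the selenoprotein SELENOM by 0.62 (SE 0.15). At 24 h, 3 rose and 4 fell, or 25.0% and 33.3% of the list, beside 19.6% and 21.1% of all tested genes. DESeq2 called 3 higher and 2 lower. SELENOM rose by 1.12 (SE 0.15) and CRELD1 by 0.78 (SE 0.18). The peroxidase GPX7 fell by 0.95 (SE 0.34, adjusted p = 0.036 in edgeR) on 1.26 to 3.87 CPM. VKORC1, which recycles vitamin K and can oxidise PDIs, fell by 0.64 (SE 0.10). CRELD2 had a log2 fold change of 0.03 at 24 h (adjusted p = 0.911 in edgeR), and its interaction of -2.13 was called (adjusted p = 3.92e-05). PRDX4, the peroxiredoxin that uses the hydrogen peroxide made by ERO1, was not called at 12 h (0.09, adjusted p = 0.788) or 24 h (0.24, adjusted p = 0.215). The median log2 fold change of this list was 0.08 at 12 h and 0.04 at 24 h.

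Of 14 partners and clients of the members, 12 were tested, with 5 higher and 0 lower at 12 h (0 also at an unadjusted p below 0.05 in edgeR, and 0 in DESeq2) and 5 higher and 2 lower at 24 h. At 12 h that is 41.7% higher and 0.0% lower, beside 5.27% and 3.43% of all tested genes. At 24 h it is 41.7% and 16.7%, beside 19.6% and 21.1%. DESeq2 called 4 higher at 12 h, and 5 higher and 1 lower at 24 h. The medians were 0.24 and 0.22. HSPA5, the chaperone BiP, rose by 3.42 (SE 0.10) and 2.81 (SE 0.10). CANX, the lectin calnexin that works with PDIA3, rose by 0.40 (SE 0.08) at 12 h and 0.92 (SE 0.08) at 24 h. Its lectin partner CALR rose by 2.23 (SE 0.17) at 12 h and had a value of -0.12 at 24 h, on levels of 4.44 to 33.6 CPM. Like PDIA6, calreticulin and the glucose transporter SLC2A1 (2.01 to 3.66 CPM) are usually abundant in cultured cells, and no source used here gives a reason for their few reads. The catalytic subunits that pair with P4HB in collagen hydroxylation, P4HA1 and P4HA2, were not called at 12 h (-0.10 and 0.37) and rose by 0.35 (SE 0.08) and 1.28 (SE 0.15) at 24 h. Of the TXNDC11 partners, EDEM2 rose by 0.48 (SE 0.14) at 12 h and 0.57 (SE 0.14) at 24 h. Its call at 12 h was close to the threshold (adjusted p = 0.0442 in edgeR). EDEM3 rose by 0.28 (SE 0.08) at 12 h and fell by 0.30 (SE 0.08) at 24 h, with a called interaction of -0.59 (adjusted p = 0.00181 in edgeR). The TXNDC11 client DUOX1 fell by 0.96 (SE 0.36, adjusted p = 0.0423 in edgeR) at 24 h on 1.48 to 3.68 CPM.

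Of 10 regulators, 6 rose at 12 h and 8 at 24 h, and 0 fell (also 0 at an unadjusted p below 0.05 in edgeR, and 0 in DESeq2). Of all tested genes, 5.27% rose and 3.43% fell at 12 h, and 19.6% rose and 21.1% fell at 24 h. The regulators had medians of 0.57 and 1.09. The unfolded protein response factor XBP1 rose by 1.21 and 1.24 at the 2 times, the IRE1 gene ERN1 by 0.74 and 1.08, the PERK gene EIF2AK3 by 1.55 and 1.14, ATF4 by 0.72 and 1.09, and DDIT3, which encodes CHOP, by 3.29 and 2.32. EPAS1, which encodes the hypoxia factor HIF-2α, rose by 0.43 and 1.57. ATF6 and HIF1A were called only at 24 h, at 0.28 and 0.20, against 0.23 and 0.15 at 12 h, and neither had a called interaction (adjusted p = 0.853 and 0.822 in edgeR). ATF6B (0.07 and -0.04) and ARNT (-0.0037 and 0.16) were not called at either time.

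Hypoxia targets were examined because ERO1A is known as one. Of 12 listed genes, 11 were tested, with 3 higher and 1 lower at 12 h and 7 higher and 1 lower at 24 h. At 12 h that is 27.3% and 9.1%, beside 5.27% and 3.43% of all tested genes. At 24 h it is 63.6% and 9.1%, beside 19.6% and 21.1%. NDRG1 rose by 1.50 (SE 0.25) and 2.32 (SE 0.24), KDM3A by 0.50 (SE 0.08) and 1.00 (SE 0.08), and VEGFA by 0.79 (SE 0.08) and 0.65 (SE 0.08). ANKRD37 rose by 1.74 (SE 0.45) at 24 h on 0.431 to 3.06 CPM, and EGLN3 fell by 0.63 (SE 0.16) at 12 h and 0.44 (SE 0.16) at 24 h. DESeq2 had 0 genes of this list lower at 24 h, and 0 at an unadjusted p below 0.05. The medians were 0.18 and 0.39, beside 0.07 and 0.02 for ERO1A.

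**Figure D5:**
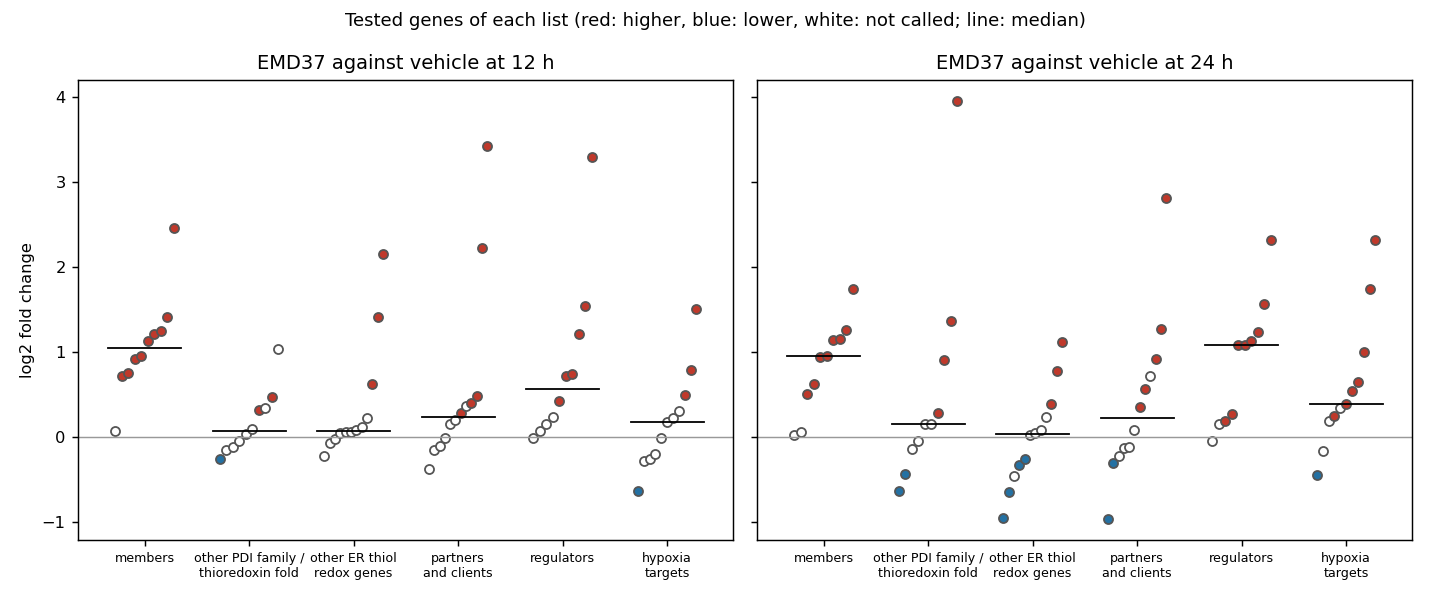
Log2 fold change of EMD37 against vehicle at 12 h (left) and 24 h (right) for the 10 genes described here and the tested genes of the 5 other lists, each point 1 gene. Red points were called higher, blue lower and white not called, and the line is the median, which for the 10 genes is 1.05 and 0.95.

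The order of the 10 genes per kb of exon was largely the same in all groups at its upper end and changed below. In vehicle at 12 h, PDIA4, P4HB and PDIA3 had means of 31.6, 31.3 and 28.9 CPM per kb, and their libraries overlapped from one to the next. ERO1A followed at 23.9, and ERP44 at 6.08 ± 0.52 (SD, n = 2). PDIA6 at 3.15 ± 0.48 overlapped TXNDC11 at 2.79 ± 0.06, then came ERO1B at 2.13 ± 0.26, and PDIA5 at 1.38 ± 0.27 overlapped TXNDC5 at 1.23 ± 0.33. With EMD37 at 12 h no neighbours overlapped: ERO1B, at 11.7 ± 0.97, took the fifth place, directly above ERP44 at 10.2 ± 0.91. In vehicle at 24 h P4HB and PDIA4 overlapped, with means of 38.13 and 38.10, and ERO1B was again directly below TXNDC11, at 2.21 ± 0.05. With EMD37 at 24 h ERP44 at 7.87 ± 0.12, ERO1B at 7.39 ± 0.73 and PDIA6 at 6.73 ± 1.54 overlapped in turn, and TXNDC5 was lowest at 1.38 ± 0.38.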

How the data were processed

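RNA of 8 MDA-MB-231 libraries was taken up by a Direct-zol kit and prepared with TruSeq V2, which does not mark strand, per the labels' protocols. FastQC, STAR, DESeq2 and build hg38 are named in the submitters' processing notes, but the sources used here give no versions, roles or read counter. The authors deposited whole-number read counts per gene, the input to every test. Their deposited normalized counts (signal) were these reads over a size factor for each library. The count table, as held here, had 36715 genes. Another 6912 genes were recovered as reads from the normalized table (100% of values whole within 0.01). They held 8.26% to 11.66% of reads and entered an alternative only.

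Genes were named by Ensembl ID (36635 matched the name table) and placed with GENCODE 29. In edgeR 4.0.16 (R 4.3.3), 14850 genes passed filterByExpr at a minimum count of 10. TMM factors ran from 0.948 to 1.03, and 1 model with a mean for each of the 4 groups left 4 residual degrees of freedom. Its quasi-likelihood test was adjusted by Benjamini-Hochberg over all tested genes, and genes were called at an adjusted p below 0.05. Intervals are 95% intervals of the fit. The script was tested on simulated data. Alternatives were DESeq2 1.42.0, RLE factors, no filter, a replicate block, recovered genes, only the libraries compared, and leaving out each library.

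The 10 genes and the 5 other lists were chosen with earlier results of these data known. All 10 members and all regulators are named, with up to 4 genes of each other list by size of change among those called. P4HA1, PRDX4 and SLC2A1 are named outside that rule, after their values were seen. Protein sequences were not used here.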

Additional observations from a re-analysis of the deposited data

Results flagged for a closer look

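The effect of EMD37 differed between 12 h and 24 h by the interaction test for 3 of the 10 genes, 1 higher and 2 lower, where 7.96% of all tested genes were called higher and 7.94% lower. Each of the 3 calls was lost when certain single libraries were left out. The log2 difference, 24 h minus 12 h, was 0.42 for PDIA3, -1.15 for TXNDC5 and -0.72 for ERO1B. Groups of 2 libraries are too small for a search for single outlying samples.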

How the results depend on the processing

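The counts of members called at 12 h (8 to 9 higher, 0 lower) and at 24 h (8 higher, 0 lower) kept to this range under every alternative run. For the interaction, the number called higher was 1, and 0 to 2 when 1 library was left out; the number called lower was 2, 1 in DESeq2, and 0 to 2 when 1 library was left out. For EMD37 at 24 h against 12 h, leaving out 1 library gave 1 to 2 higher and 2 to 3 lower, beside 2 and 4 with all libraries in edgeR and 2 and 3 in DESeq2. For vehicle over time it gave 0 to 2 higher. Over all genes, calls in vehicle over time went from 408 higher and 482 lower to 42 and 83 with only its 4 libraries, and to 1564 and 929 without vehicle A at 24 h. At 12 h they went from 782 and 510 to 1394 and 1109 with only its 4 libraries. Leaving out 1 library at 12 h gave 387 to 448 higher and 106 to 211 lower. It gave 677 to 1615 and 513 to 1621 for the interaction (1182 and 1179 with all libraries), and 1418 to 1794 and 1328 to 1628 for EMD37 over time (2297 and 2327).

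Some uncalled values changed sign when 1 library was left out. TXNDC5 at 24 h, at 0.06, ran from -0.27 (without EMD37 B) to 0.33. In the interaction, PDIA4 reached 0.0136 without vehicle B at 24 h, ERO1A ran from -0.0914 to 0.0075, and PDIA5, at 0.0026, from -0.20 to 0.19. PDIA6 over time with EMD37 ran from -0.41 to 0.0834. In vehicle over time, PDIA3 ran from -0.15 to 0.0335, PDIA6 from -0.0033 to 0.32, TXNDC5 from -0.13 to 0.41 and ERO1B from -0.0719 to 0.19. The cause was not tested.

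Whether libraries with the same letter were paired by design cannot be read from the values, which showed no strong shared effect of the letter. Deviations from the group means of libraries with the same letter correlated at -0.162 to 0.161 over the 6 pairs of groups. A replicate block on the letter changed 0 of 50 member calls. The PDIA5 interaction, uncalled, was -0.0144 with the replicate block.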
